A study of Mus musculus with 43 samples.

Results

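Peritoneal metastases of mice given control IgG are described here through the sgRNAs carried by the OT-I T cells sorted from them. These sgRNAs are set against those of transduced OT-I T cells sampled on the day of transfer (T0). The metastasis group has 2 libraries, replicates 2 and 3, of the 43 samples in the series. Replicate 1 of this group was excluded by the authors after quality control, and T0 has 3 libraries. The transferred cells were mouse CD8+ T cells of the OT-I strain, whose receptor binds an ovalbumin peptide, from Rag2/OT-I mice crossed to constitutive Rosa26-Cas9 knock-in mice, and every group shared the knock-in and the lentiviral metabolic sgRNA library, in which CD90.1 marks transduced cells. Recipients, also Rosa26-Cas9, carried orthotopic KPC_OVA tumours, a mouse pancreatic ductal adenocarcinoma (PDAC) line that expresses ovalbumin. They received control IgG from rat serum or anti-PD-1 from the day of adoptive cell transfer (ACT), and cells were sorted 7 days later, whereas T0 cells were cultured and never transferred. The labels give no age and no number of mice behind a library. No RNA was measured, so the cell type rests on the CD90.1 sort and could not be checked against marker genes.

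In a pooled knockout screen each cell carries an sgRNA that directs Cas9 to 1 gene, and the abundance of that sgRNA in genomic DNA reports how many descendants of the edited cells are present. An sgRNA becomes rarer when cells without its target divide less, die or fail to reach the organ, and becomes more common in the opposite case. Activated CD8+ T cells divide rapidly after meeting antigen, which requires new ribosomes, nucleotides, membranes and mitochondrial energy, and signalling through PI3K and diacylglycerol follows T cell receptor engagement. Fewer cells carrying an sgRNA through loss, slower division or poorer entry cannot be told apart in these libraries.

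The table held 10640 sgRNAs, of which 250 were nontargeting and the rest targeted 2078 genes with 5 sgRNAs per gene. The level of a gene below is the mean over its 5 sgRNAs of log2(signal + 1), minus the median nontargeting sgRNA in that library, and the change is the mean level in metastases minus that at T0, also in log2 units. Summed signal was 3168621 and 2140959 in the metastasis libraries and 2882462 to 4228882 in T0. The metastasis libraries were more uneven than T0. The SD of the nontargeting sgRNAs was 1.78 and 2.12 against 1.08 to 1.11, and 8.83% and 6.80% of all sgRNAs sat at a floor, the lowest value of that sgRNA among libraries of the same replicate number and shared by at least 2 of them, against at most 0.0188% in T0. T0 replicate 3 stood apart from the other T0 libraries. Its median level of 19 ribosomal protein genes was 0.97, whereas T0 replicates 1 and 2 had -0.30 and -0.02, and list counts that change when it is left out are given both ways.

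Against T0, sgRNAs against 298 of 2078 genes fell in peritoneal metastases, which is 14.3% of the genes tested, and none rose (limma, Benjamini-Hochberg adjusted p of at most 0.05). The largest decreases were in ribosomal proteins, RNA polymerase, purine synthesis and S-adenosylmethionine synthesis, and 180 genes fell by more than 4 log2 units. Such sizes are limited by the floor and depend on the value added before the logarithm. Of the 298 genes, 295 had at least 1 sgRNA at the floor in a metastasis library and 22 had all 5 there in at least 1 library. With log2(signal + 10) in place of log2(signal + 1), 14 of the 298 were lower by more than 4 and their median change was -2.96. The change of *Rpl3* moved from -7.31 to -4.16, that of *Paics* from -7.25 to -4.35 and that of *Adsl* from -5.87 to -3.42. With log2(signal + 1), changes of the called genes ran from -7.78 to -1.81 (median -4.51), beside a median of -0.54 over all genes. In all 298 genes both metastasis libraries lay below all 3 T0 libraries, at least 4 of 5 sgRNAs were lower, and in 274 all 5 were. Among all 2078 genes, called or not, at least 4 sgRNAs were lower in 1060. Agreement of the sgRNAs is therefore common here and is not separate evidence, since the call uses their mean. Without T0 replicate 3 the test called 255 genes, all of them among the 298, and 7 of the 96 called genes named here no longer passed. At an unadjusted p below 0.05, 409 genes were lower and 3 higher. Both libraries lay below all T0 libraries in 1119 genes, 53.8% of those measured, and above them in 91 genes, or 4.38%. Without T0 replicate 3 these numbers were 1202 genes, or 57.8%, and 97 genes, or 4.67%.

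**Figure D1:**
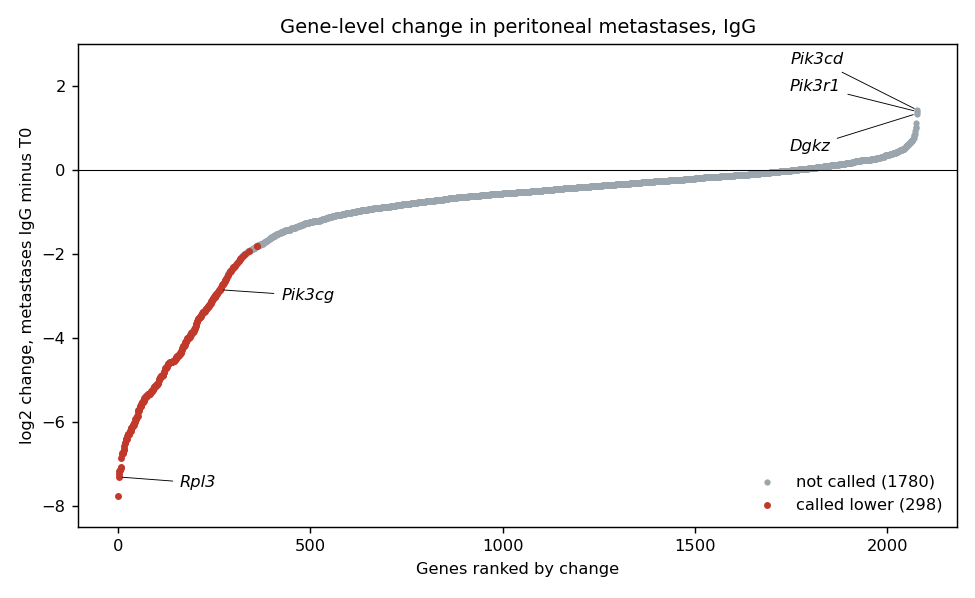
Each point is 1 of 2078 genes, ranked on the x axis by its log2 change in peritoneal metastases IgG against T0, which is on the y axis. Red points are the 298 genes that fell past the threshold, and the 3 labelled genes at the upper end, none of which passed it, lie between 1.34 and 1.42.

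The nontargeting sgRNAs give the spread without a target. Their change had a median of -0.12 and an SD of 1.09 over 250 sgRNAs, with the 5th to 95th percentile from -2.54 to 1.21. Of them, 17 were lower by over 2 log2 units and 0 were higher by that much. A list of 59 cytochrome P450 genes, enzymes known mainly from liver, had 1 gene that fell (*Cyp2d10*, change -2.22, limma adjusted p = 0.0319) and a median of -0.61, close to that of all genes. The share that fell was 1.69%, beside 14.3% of all genes. *Cyp2d10* did not pass without T0 replicate 3 (adjusted p = 0.0797).

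Ribosomal proteins had the lowest median change of the 42 lists. All 19 cytosolic ribosomal protein genes fell, with a median change of -6.29 and the change closest to 0 at -3.85. *Rpl3*, a protein of the large ribosomal subunit, had levels of -0.65, -0.46 and 0.61 in T0 replicates 1 to 3 and -7.64 and -7.32 in the metastases. Both metastasis libraries were far below every T0 library, and the change was -7.31 (SE 0.642, limma adjusted p = 7.91e-10). The signal of its 5 sgRNAs was 125 to 424 in T0 replicate 1, 0.0753 to 0.423 in metastasis replicate 2 and 0 in metastasis replicate 3, so that all 5 were at the floor in both. This was also so for *Rps13*, *Rps7* and *Mat2a*. *Rpl9*, also of the large subunit, had -0.72, -0.61 and 0.74 at T0 and -7.65 and -6.07 in metastases (change -6.66, SE 0.643, adjusted p = 4e-09). The smallest change of the list was that of *Rps24* (-3.85, adjusted p = 0.000476).

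Subunits of RNA polymerases and of the proteasome also fell in nearly every case. Of 27 subunits of RNA polymerases I, II and III, 25 fell (median -5.14), or 23 without T0 replicate 3. *Polr1b*, the second-largest subunit of RNA polymerase I, which transcribes ribosomal RNA, had -0.42, -0.18 and 0.80 at T0 and -6.67 and -7.32 in metastases (change -7.07, SE 0.703, adjusted p = 6.67e-09). *Polr1d*, shared by RNA polymerases I and III, had T0 levels of -0.08, -0.05 and 0.63 and metastasis levels of -4.86 and -5.08 (change -5.14, SE 0.702, adjusted p = 1.16e-06). The subunits that did not pass were *Polr1e* (-1.54, adjusted p = 0.706) and *Polr3g* (-1.0, adjusted p = 0.476). All 10 proteasome subunits measured fell, from *Psmb3* at -6.50 to *Psmd6* at -3.38, with a median of -5.18. The 2 cytosolic and 2 mitochondrial aminoacyl-tRNA synthetases in the lists, which charge tRNAs, also fell, namely *Mars* (-6.29), *Eprs* (-6.08), *Ears2* (-5.26) and *Mars2* (-5.21). In the COP9 signalosome, which acts on ubiquitin ligases, 2 of 4 genes fell, *Cops6* (-4.11) and *Cops4* (-2.31, adjusted p = 0.0809 without T0 replicate 3).

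**Figure D2:**
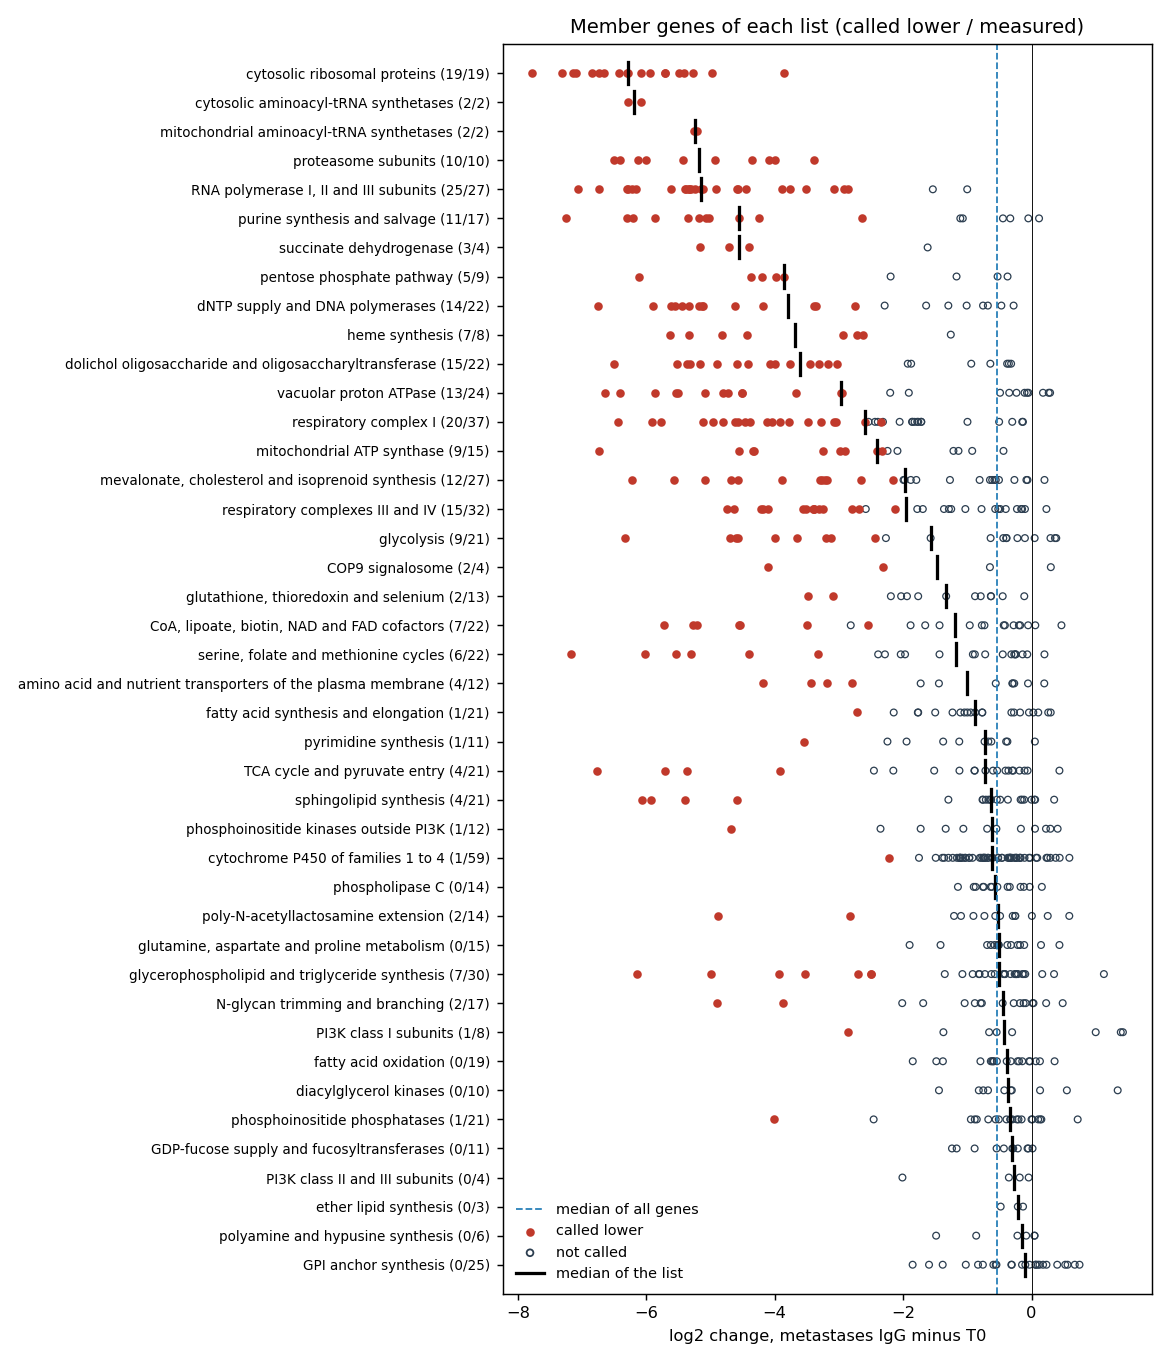
Each row is 1 of 42 gene lists and each circle 1 member, with its log2 change in peritoneal metastases IgG against T0 on the x axis. Filled red circles fell past the threshold, open circles did not, black bars are list medians and the dashed line is the median of all genes at -0.54. Ribosomal proteins lie at the left with 19 of 19 members called, and GPI anchor synthesis at the right with 0 of 25.

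Among nucleotide synthesis genes most calls were in the purine list. Of 17 purine genes, 11 fell (median -4.56), among them enzymes of the de novo route to IMP. *Paics*, a bifunctional enzyme of that route, had -0.37, -0.12 and 0.85 at T0 and -6.94 and -7.32 in metastases. Its change of -7.25 (SE 0.807, adjusted p = 4.78e-08) was shared by all 5 sgRNAs. *Gart* (-6.30), *Ppat* (-6.21), *Adsl* (-5.87) and *Pfas* (-5.34) act in the same route and fell as well. Of 11 pyrimidine genes only *Cmpk1*, a UMP/CMP kinase, fell (-3.54, adjusted p = 0.00607), and the list median was -0.73. That share of 9.09% was near the 14.3% of all genes. *Cad*, the enzyme of the first steps, changed by -2.24 (95% interval -4.55 to 0.06, adjusted p = 0.279), *Umps* by -1.13 (adjusted p = 0.689) and *Dhodh* by -0.67 (adjusted p = 0.901). The difference between purine and pyrimidine genes was not tested.

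DNA precursors and DNA polymerases had 14 of 22 genes that fell (median -3.78), or 13 without T0 replicate 3. *Rrm2*, the small subunit of ribonucleotide reductase, had -0.89, -0.41 and 0.51 at T0 and -6.70 and -7.32 in metastases (change -6.75, SE 0.865, adjusted p = 4.4e-07). *Rrm1* (-5.90), *Dut* (-5.62) and *Pole*, of DNA polymerase epsilon (-5.56), fell too. In the serine, folate and methionine cycles, 6 of 22 genes fell (median -1.17), or 5 without T0 replicate 3. *Mat2a*, which makes S-adenosylmethionine, had -1.10, -0.45 and 0.72 at T0 and -7.58 and -7.32 in metastases (change -7.17, SE 0.752, adjusted p = 1.67e-08). Also called were *Ahcy* (-5.53), the folate carrier *Slc19a1* (-5.30), *Mthfd1* (-4.40) and *Fpgs* (-3.33, adjusted p = 0.0543 without T0 replicate 3), whereas the serine hydroxymethyltransferases *Shmt1* (-0.27, adjusted p = 0.983) and *Shmt2* (-1.43, adjusted p = 0.476) did not pass.

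Mitochondrial energy metabolism was depleted in part. The genes that fell numbered 20 of 37 in respiratory complex I (median -2.59), 3 of 4 in succinate dehydrogenase (median -4.55), 15 of 32 in complexes III and IV (median -1.95) and 9 of 15 in ATP synthase (median -2.40). Without T0 replicate 3 the counts were 16 for complex I, 3 for succinate dehydrogenase, 12 for complexes III and IV and 6 for ATP synthase. *Ndufa1*, of complex I, had -0.44, 0.01 and 0.27 at T0 and -6.49 and -6.48 in metastases (change -6.44, SE 0.781, adjusted p = 1.93e-07). *Atp5a1*, the alpha subunit of ATP synthase, had -0.47, -0.19 and 0.32 at T0 and -6.57 and -7.12 in metastases (change -6.73, SE 0.755, adjusted p = 5.33e-08). Among the genes of succinate dehydrogenase, *Sdhc* (-5.17), *Sdha* (-4.71) and *Sdhb* (-4.39) fell. *Sdhd* did not pass, with levels of -1.65 and -1.51 in metastases and a change of -1.62 (95% interval -3.33 to 0.09, adjusted p = 0.306). In a list of the TCA cycle and the entry of pyruvate into it, 4 of 21 genes fell (19%, beside 14.3% of all genes, median -0.72). *Dlst* (-6.77, adjusted p = 3.01e-07), *Dld* (-5.71) and *Ogdh* (-5.37) were among them and form the 2-oxoglutarate dehydrogenase complex. Of the 8 heme synthesis genes 7 fell (median -3.68), from *Alas1*, the first enzyme, at -5.64 to *Alad* at -2.63 (adjusted p = 0.119 without T0 replicate 3, which left 6 of the 7), and *Ppox* did not pass (-1.26, adjusted p = 0.644). Cofactor genes fell in 7 of 22 cases, or 5 without T0 replicate 3, among them *Lias* (-5.27), which makes the lipoate carried by *Dlst*, and *Nampt* (-5.22), of NAD salvage.

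Glycolysis and the vacuolar proton pump held called genes beside paralogues that did not pass. In glycolysis 9 of 21 genes fell (median -1.57), or 8 without T0 replicate 3. *Aldoa*, an aldolase, had 0.12, 0.29 and 1.78 at T0 and -3.95 and -7.24 in metastases (change -6.33, SE 0.906, adjusted p = 2.72e-06). Both libraries were below T0, but they differed from each other by 3.29 log2 units. *Aldoc* changed by 0.05 (95% interval -1.39 to 1.48). The glucose transporter *Slc2a1* fell by 2.44 (adjusted p = 0.035, and 0.113 without T0 replicate 3) and *Slc2a3* changed by 0.30 (adjusted p = 0.983). *Pkm* (-4.70) and *Pgk1* (-4.0) fell, and *Ldha* did not pass (-2.27, adjusted p = 0.0731). In the pentose phosphate pathway 5 of 9 genes fell (median -3.86), including *Tkt* (-6.11), a transketolase, and *G6pdx* (-4.20), the first enzyme, while *Taldo1* changed by -0.37 (adjusted p = 0.983). The vacuolar proton ATPase, which acidifies lysosomes, had 13 of 24 genes that fell (median -2.96), or 11 without T0 replicate 3. Its subunit *Atp6v1b2* fell by 5.50 (adjusted p = 8.3e-08), and *Atp6v1b1* changed by -2.20 without passing (adjusted p = 0.0651). The same side-by-side values were -4.24 for *Impdh2* and -0.05 for *Impdh1*, -5.02 for *Adss* and -0.33 for *Adssl1*, -2.80 for *Cox4i1* and -0.49 for *Cox4i2*, and -4.59 for *Sptlc2* and -0.71 for *Sptlc3*. In each pair the first gene fell and the second did not pass, and the difference within a pair was not tested. The pairs were chosen after their values were seen.

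A list of plasma membrane transporters for amino acids and other nutrients, monocarboxylates among them, had 4 of 12 genes that fell (median -1.0). *Slc3a2* had 0.07, 0.18 and 0.74 at T0 and -3.67 and -4.04 in metastases (change -4.18, SE 0.804, adjusted p = 0.000179), and it encodes the heavy chain that pairs with the light chain encoded by *Slc7a5* (-3.18, adjusted p = 0.00181). *Slc7a1*, a transporter of cationic amino acids, fell by 3.43, and *Slc38a1* also fell (-2.80). The glutamine transporter *Slc1a5* did not pass (-0.30, adjusted p = 0.983). No gene of the 15 in glutamine, aspartate and proline metabolism passed (median -0.51).

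Lipid pathways differed in how many members were called. In mevalonate, cholesterol and isoprenoid synthesis 12 of 27 genes fell (median -1.98), or 10 without T0 replicate 3. *Hmgcs1* had -0.18, -0.01 and 0.64 at T0 and -6.46 and -5.68 in metastases (change -6.23, SE 0.896, adjusted p = 2.85e-06). Of 21 sphingolipid genes 4 fell (19%, beside 14.3% of all genes, median -0.63). All were early steps or glucosylceramide synthesis, namely *Kdsr* (-6.07), *Sptlc1* (-5.93), *Ugcg* (-5.39) and *Sptlc2* (-4.59). Of 30 glycerophospholipid and triglyceride genes 7 fell (23.3%, beside 14.3% of all genes), or 5 without T0 replicate 3. The list median of -0.50 was close to the -0.54 of all genes. Those that fell were led by *Cdipt*, which makes phosphatidylinositol (-6.14, adjusted p = 8.37e-08), and *Pisd*, which makes phosphatidylethanolamine in mitochondria (-5.0). Fatty acid synthesis and elongation had 1 of 21 genes that fell (4.76%, beside 14.3% of all genes). It was *Mecr* of the mitochondrial route (-2.71, adjusted p = 0.0333, and 0.0884 without T0 replicate 3). *Acaca* (-2.15, adjusted p = 0.0995) and *Fasn* (-1.0, adjusted p = 0.582) of the cytosolic route did not pass. *Elovl1*, which elongates very-long-chain fatty acids, had -0.06, -0.17 and -0.32 at T0 and 0.01 and -0.16 in metastases. These ranges overlapped, and the change was 0.11 (95% interval -1.24 to 1.45, adjusted p = 0.987), with 3 sgRNAs lower and 2 higher, a sign that turned with the median of the sgRNAs (-0.40) and with the values as deposited (-0.32). No gene of fatty acid oxidation passed (0 of 19, median -0.39), where *Cpt1a*, of carnitine-dependent import, changed by -0.60 (adjusted p = 0.927).

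In glycosylation the decreases lay mainly at the start of the N-glycan. Genes that build the dolichol-linked oligosaccharide or transfer it to protein fell in 15 of 22 cases (median -3.61), with *Alg13* at -0.93, -0.66 and 0.21 at T0 and -7.56 and -6.36 in metastases (change -6.50, SE 0.622, adjusted p = 3.76e-09). *Rpn1*, of the oligosaccharyltransferase, fell by 5.17. In later trimming and branching 2 of 17 genes fell, *Mgat1* (-4.89), which opens the way to complex N-glycans, and *Mogs* (-3.87), and the median was -0.45. In poly-N-acetyllactosamine extension 2 of 14 fell, *B4galt1* (-4.89) and *B4galt5* (-2.83). These shares, 11.8% for trimming and branching and 14.3% for extension, were near the 14.3% of all genes. *B3gnt2*, which extends these chains, had 0.78, 0.74 and 0.23 at T0 and 2.10 and 0.24 in metastases. The groups overlapped, and its change of 0.59 (95% interval -0.82 to 2.0, adjusted p = 0.884) became -0.34 without metastasis replicate 2. None of 25 GPI anchor genes passed (median -0.10), from *Pigt* at -1.85 to *Pigw* at 0.75, and none of 11 genes of fucose supply and transfer did. In all, 9 of the 42 lists, with 107 members, had no gene that fell, beside 14.3% of all genes. The difference from that share was not tested.

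The largest increases did not pass the test. *Pik3cd*, a catalytic subunit of class I PI3K in leukocytes, had 0.47, 0.46 and -0.61 at T0 and 1.94 and 1.11 in metastases. Both metastasis libraries were above all T0 libraries and all 5 sgRNAs were higher, with changes of single sgRNAs from 0.73 to 2.27, and the gene changed by 1.42 (SE 0.685, 95% interval 0.03 to 2.82, adjusted p = 0.237). *Pik3r1*, the regulatory subunit, had 0.72, 0.47 and -0.04 at T0 and 1.52 and 2.04 in metastases, with all 5 sgRNAs higher (change 1.39, SE 0.544, 95% interval 0.28 to 2.50, adjusted p = 0.0995). *Dgkz*, which turns diacylglycerol into phosphatidic acid, had 0.24, -0.23 and -0.46 at T0 and 1.77 and 0.62 in metastases, again with 5 sgRNAs higher (change 1.34, SE 0.632, adjusted p = 0.223). These 3 genes had the highest changes of all 2078. The 5 next by the rule were *Cept1* (1.13, adjusted p = 0.428), *Kmt2c* (1.02, adjusted p = 0.739), *Pik3r3* (1.0, adjusted p = 0.643), *Keg1* (0.93, adjusted p = 0.643) and *Acsl5* (0.86, adjusted p = 0.717). That rule required both metastasis libraries above all T0 libraries and at least 4 sgRNAs higher. Neither trait is therefore evidence for the genes it picked. T0 replicate 3 was the lowest T0 library for *Pik3cd*, *Pik3r1* and *Dgkz*, and without it their changes were 1.07, 1.18 and 1.19.

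Subunits of class I PI3K had changes of both signs. Of 8 genes, 1 fell (12.5%, beside 14.3% of all genes). It was *Pik3cg*, the catalytic subunit that acts downstream of G protein-coupled receptors. It had 0.17, 0.55 and 0.15 at T0 and -2.54 and -2.59 in metastases (change -2.85, SE 0.693, adjusted p = 0.0027), and 4 of its 5 sgRNAs were lower, with changes of -6.20 to -2.56, while the other was higher by 2.22. *Pik3r5*, a partner of this subunit, changed by -1.37, and *Pik3ca* (-0.30) and *Pik3cb* (-0.54) were near the median of all genes. Among other phosphoinositide enzymes, *Inpp5k* (-4.01, adjusted p = 0.00082) and the kinase *Pi4kb* (-4.68, adjusted p = 2.08e-05) fell. *Inpp5d* did not pass (-2.46, adjusted p = 0.143), with -0.57 in metastasis replicate 2 and -4.09 in replicate 3. None of 14 phospholipase C genes and none of 10 diacylglycerol kinase genes passed, beside 14.3% of all genes that fell.

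**Figure D3:**
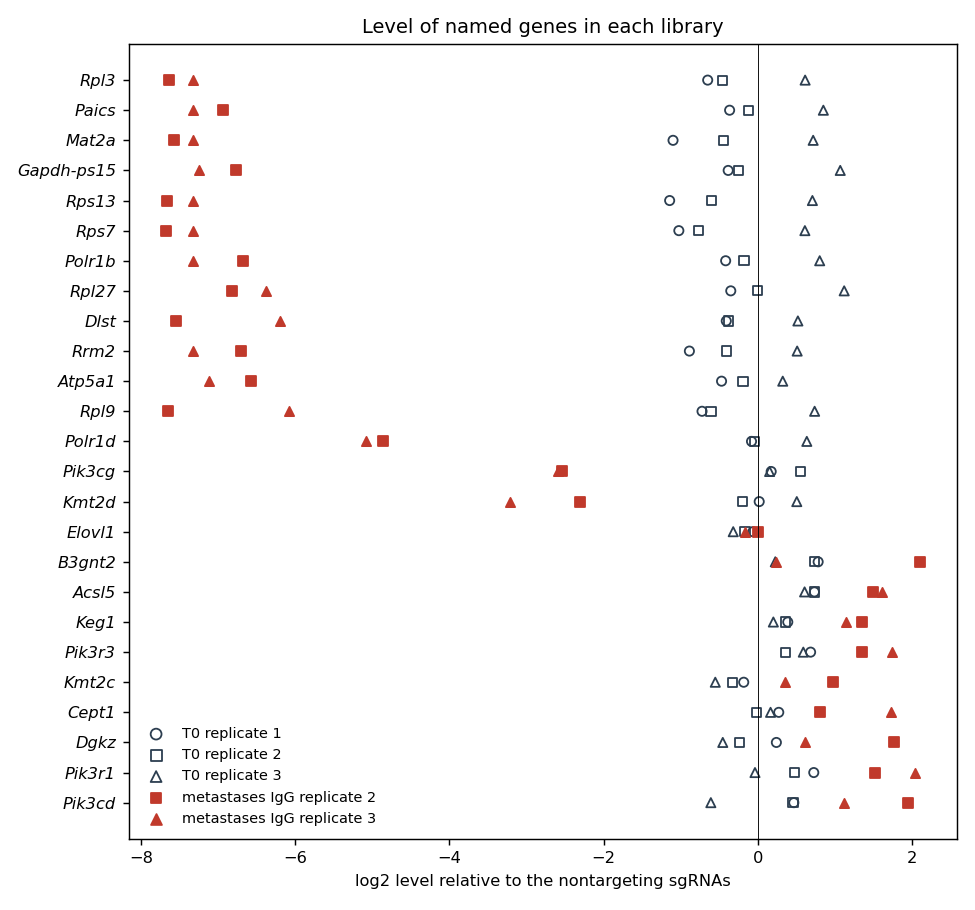
The x axis gives the log2 level relative to the nontargeting sgRNAs and each row is 1 named gene. Open symbols are the 3 T0 libraries and filled red symbols the 2 metastasis libraries. For *Rpl3* the metastasis libraries sit at -7.64 and -7.32, and for *Pik3r1* at 1.52 and 2.04, outside the T0 range in opposite directions.

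**Figure D4:**
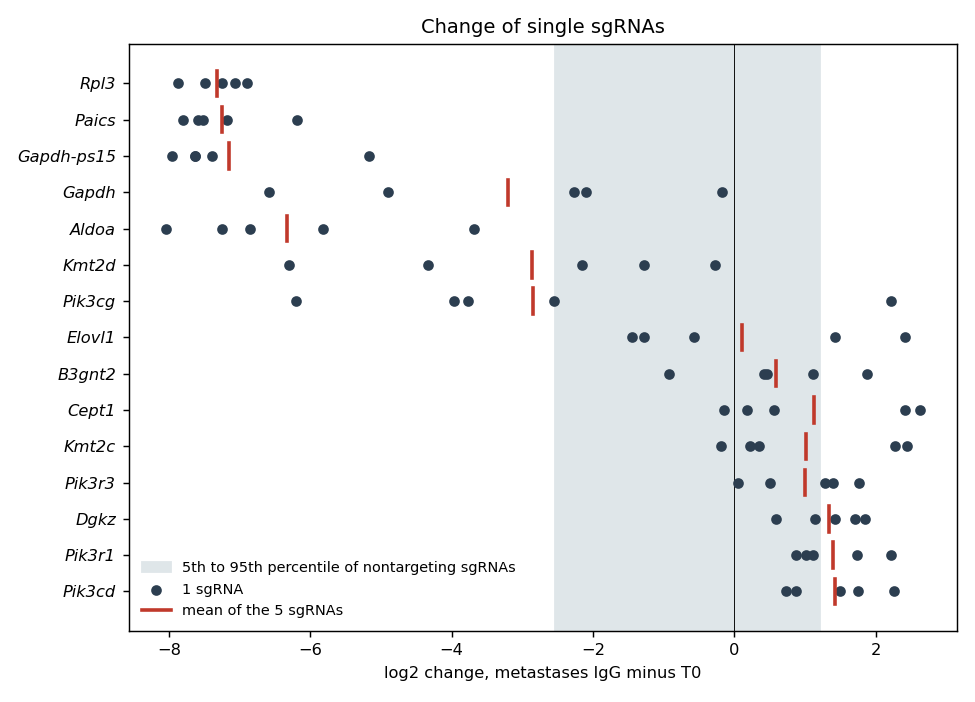
Each dark point is 1 sgRNA, with its log2 change in peritoneal metastases IgG against T0 on the x axis and its target gene on the y axis. Red bars are the means of the 5 sgRNAs and the grey band runs from -2.54 to 1.21, the 5th to 95th percentile of 250 nontargeting sgRNAs. All 5 sgRNAs of *Rpl3* lie left of the band. For *Pik3cd* all 5 are above 0, but those at 0.73 and 0.87 lie inside the band.

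Of the 298 genes that fell, 61 were in none of the lists. The following were grouped after their values were seen. Several supply sugars for glycans, among them *Slc35a2*, the UDP-galactose transporter (-0.78, -0.52 and 0.08 at T0, -6.62 and -7.32 in metastases, change -6.57, adjusted p = 1.67e-08), *Ugp2* (-5.53), *Gfpt1* (-4.94), *Gne* (-4.91), *Gmppb* (-4.88) and the CMP-sialic acid transporter *Slc35a1* (-3.99). *Ogt*, which adds N-acetylglucosamine to intracellular proteins, fell by 5.62 (adjusted p = 1.03e-06). *Dnmt1*, the maintenance DNA methyltransferase, fell by 4.48. Of 24 histone lysine methyltransferase genes in the library, counted after the values were seen, 4 fell, which is 16.7% beside 14.3% of all genes, and their median change of -0.53 was close to that of all genes. The 4 were *Kmt2a* (-3.62), *Setd1a* (-3.39, adjusted p = 0.119 without T0 replicate 3), *Kmt2d* (-2.87) and *Dot1l* (-2.75). *Kmt2d* had 0.02, -0.20 and 0.50 at T0 and -2.31 and -3.22 in metastases (SE 0.638, adjusted p = 0.00105). Its paralogue *Kmt2c*, named above among the largest increases, did not pass, and its single sgRNAs changed by -0.18 to 2.44. The difference between these 2 genes was not tested.

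Some library genes are annotated as pseudogenes in RefSeq, to which 2039 symbols matched directly and 33 through a synonym. Of 10 pseudogenes 3 fell, *Gapdh-ps15*, *Gm13882* (-3.86) and *Gm4459* (-3.79). Of a further 5 genes annotated as transcribed pseudogenes 0 fell. Among all genes 14.3% fell, and the difference from that share was not tested. *Gapdh-ps15* had -0.39, -0.25 and 1.07 at T0 and -6.77 and -7.25 in metastases (change -7.16, SE 0.613, adjusted p = 5.68e-10), and its 5 sgRNAs changed by -7.95 to -5.17. *Gapdh* itself fell by 3.20 (SE 0.935, adjusted p = 0.0143), and its 5 sgRNAs ranged from -6.58 to -0.18. Whether sgRNAs named for a pseudogene also cut the parent gene was not tested, because the sgRNA sequences were not analysed here.

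The metastasis libraries differed from each other in the depth of depletion of single genes. Over the 298 genes replicate 2 minus replicate 3 had a median of -0.16 and ran from -3.81 for *Pnpt1* (-6.48 and -2.67) to 3.41 for *Pold2* (-3.73 and -7.15), and 50 genes differed by over 2 log2 units. *Pmm2*, of mannose activation, had -5.87 and -2.23.

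Whether depletion in peritoneal metastases differed from that at other sites was tested directly against primary tumour IgG, spleen IgG and peritoneal metastases anti-PD-1, each with 3 libraries. No gene passed in any of the 3 comparisons in either direction (limma adjusted p of at most 0.05, 0% of 2078 genes). At an unadjusted p below 0.05, 44 genes were lower and 1 higher than in primary tumour, 59 lower and 25 higher than in spleen, and 36 lower and 38 higher than under anti-PD-1. The median 95% interval of a gene reached 1.54 log2 units to either side before adjustment over all genes, and differences larger than that also failed the adjusted test. The deposited signal had already been corrected for batches between organs. How far that altered differences between sites was not tested, so the lack of calls does not show that the sites were alike.

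For the 298 genes, the median difference was -0.56 against primary tumour IgG, -0.42 against spleen IgG and -0.14 against metastases under anti-PD-1, beside -0.22, -0.10 and -0.01 over all genes. *Rpl3* had a mean level of -7.48 in metastases IgG, and -6.96 ± 0.77, -6.06 ± 0.32 and -7.02 ± 0.71 (SD, n = 3) in the other groups in that order. *Pik3cd* had 1.53, against 1.48 ± 0.52 in primary tumour IgG, 2.97 ± 0.31 in spleen IgG and 2.55 ± 0.77 in metastases under anti-PD-1 (SD, n = 3). The difference to spleen was -1.44 (95% interval -2.84 to -0.04, limma adjusted p = 0.999). *Pik3r1* differed from the 3 groups by 0.39, -0.46 and -0.39, and *Dgkz* by -0.07, -0.26 and -0.29.

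The following genes were chosen after their values were seen. *Kmt2d* was lower in metastases IgG (-2.76) than in primary tumour IgG (-0.60 ± 0.41), spleen IgG (-0.61 ± 0.64) and metastases under anti-PD-1 (-0.80 ± 0.56, SD, n = 3 each). The differences of -2.16, -2.15 and -1.96 had limma adjusted p of 0.999, 0.881 and 0.995, and the 3 comparisons share the metastasis IgG libraries. *Pik3cg* likewise had -2.56 against -0.57 ± 0.18, -0.83 ± 0.57 and -1.13 ± 0.81, with no adjusted p below 0.995. *Sdhd* had the largest positive difference from anti-PD-1, with -1.65 and -1.51 under IgG and -6.27, -5.34 and -3.25 under anti-PD-1 (difference 3.37, SE 0.839, limma adjusted p = 0.699). *Asl*, of arginine synthesis, had 0.57 and 1.03 under IgG and -1.81, -3.92 and -0.14 under anti-PD-1 (difference 2.75, adjusted p = 0.699). Anti-PD-1 replicate 2, the lowest for *Asl*, is titled as peritoneal metastasis but has spleen as its tissue label. The largest decrease past an unadjusted p against primary tumour was in *Galnt7* (-2.56, adjusted p = 0.999), followed by *Polr2h* (-2.53, adjusted p = 0.999).

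**Figure D5:**
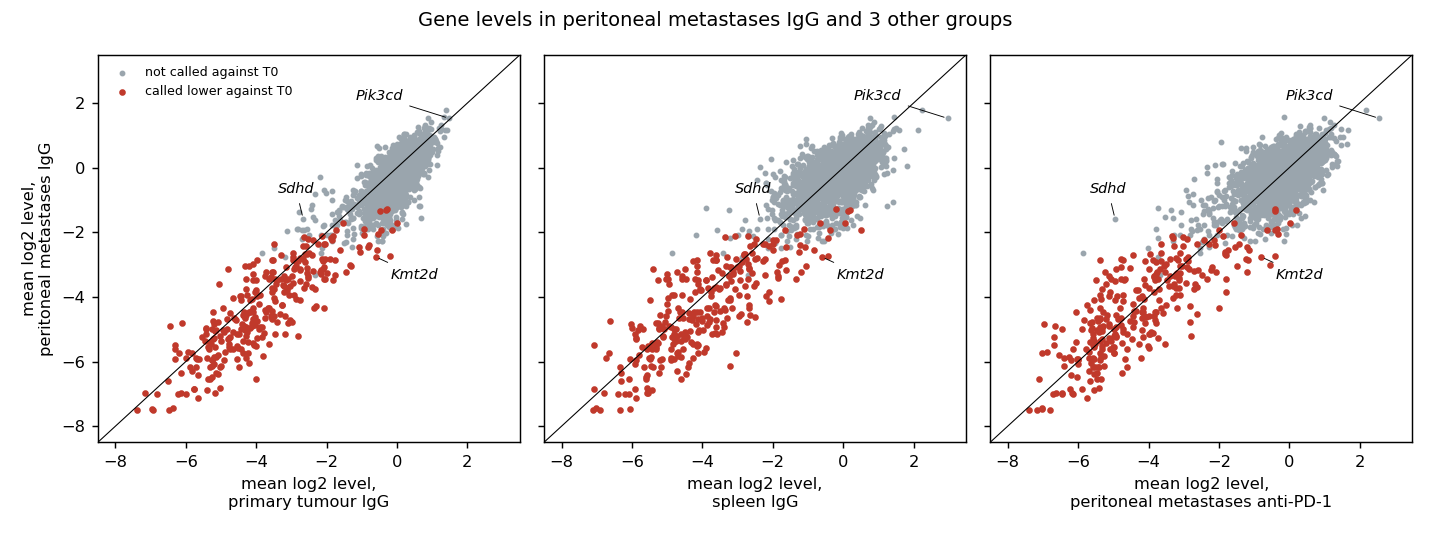
Mean log2 level of each gene in peritoneal metastases IgG (y axis, 2 libraries) against its mean level in primary tumour IgG, spleen IgG or peritoneal metastases anti-PD-1 (x axis, 3 libraries each), with the line of equal levels. Red points are the 298 genes that fell against T0, and most of them lie low on both axes. *Kmt2d* lies below the line in all 3 panels and *Sdhd* above it, and neither passed the adjusted test in any.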

How the data were processed

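sgRNAs integrated in genomic DNA of sorted CD90.1+ OT-I T cells were amplified and sequenced, in 3 runs according to the study's methods. The authors used MAGeCK to count reads, scaled these on the nontargeting sgRNAs, corrected batches between organs with ComBat and deposited the resulting signal per sgRNA and library. These values are not whole counts, so no count test was used, the read depth is unknown and no counting interval is given. The ComBat settings and a genome build are not given in the sources used here. Gene levels are means of log2(signal + 1) over 5 sgRNAs, less the median nontargeting sgRNA. limma 3.58.1 in R 4.3.3 fitted 1 mean for each of 11 groups over 29 libraries, all but lymph nodes, whose median nontargeting signal was at most 1.39. Genes were called at 0.05 or below after Benjamini-Hochberg adjustment across all 2078. Group sizes are 2 or 3 libraries, nothing in the labels says whether a library is 1 mouse, and p-values measure the spread between libraries. Members and gene lists were chosen with earlier results of these data known. Named were the 12 largest decreases and 8 largest increases with both libraries beyond T0 and at least 4 sgRNAs changed, genes named in the study's Results, and of each list the called and most changed members, not all of which are given. Some items are not reported here. Alternatives were another pseudocount, the sgRNA median, other centrings, filters, other sets of libraries, other variance settings, a replicate block and each library left out. Scripts were tested on simulated data, and figures were drawn with matplotlib 3.10.9 in Python 3.11.15.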

Additional observations from a re-analysis of the deposited data

Results flagged for a closer look

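For *Asl*, both peritoneal metastasis libraries under IgG lay above all T0 libraries and all 3 under anti-PD-1 lay below them, a difference of 2.75 log2 units between the treatments. In the limma fit across all genes that difference did not pass (adjusted p = 0.699). Without anti-PD-1 replicate 2, whose tissue label is spleen, the smallest limma adjusted p of any gene in this comparison was 0.9997.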

How the results depend on the processing

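Against T0, the count of genes that fell was 235 to 274 with 1 library left out and 142 with the median of the sgRNAs, 581 with only the groups compared and 8 with the lowest 10% of sgRNAs left out. That filter used the mean over all libraries, and 939 of the 1039 sgRNAs it removed (90.4%) belonged to the 298 genes. The remaining alternatives gave 232 to 353, including 267 with a filter on the T0 mean alone, which was added after seeing the data. The number of genes that rose was 1 with log2(signal + 10), with centring on the nontargeting mean and with trended robust variances (*Pik3r1* each time), 2 with centring on all sgRNAs (*Dgkz* and *Pik3r1*) and 7 with only the groups compared. Centring on all sgRNAs moved the median change of all genes from -0.54 to -0.073, and values as deposited moved it to -0.96. Of the 298 genes, 62 passed in all 18 alternatives and 263 in at least 12. Against primary tumour IgG, the sgRNA median called 1 lower gene, *Pola1*. Against anti-PD-1, 0 to 2 genes were higher with 1 library left out, the 2 being *Asl* and *Sdhd* without anti-PD-1 replicate 3. Without anti-PD-1 replicate 2, whose tissue label is spleen, 0 genes passed in either direction. The smallest limma adjusted p of any gene was then 0.9997, beside 0.699 in the main fit. The median difference over all genes moved from -0.014 to -0.17. Over 135 named genes, 2155 of 2393 values kept direction and call, 182 no longer passed, 30 newly passed and 26 changed sign, the last only in genes that had not passed. With the sgRNA median these were *Cox4i2* (0.029), *Elovl1* (-0.40), *Impdh1* (0.49) and *Pik3ca* (0.13), and with values as deposited *Aldoc* (-0.37), *Asl* (-0.041), *Elovl1* (-0.32) and *Slc2a3* (-0.13). With centring on all sgRNAs they were *Adssl1* (0.13), *Impdh1* (0.41), *Pik3ca* (0.16), *Shmt1* (0.20), *Slc1a5* (0.16) and *Taldo1* (0.090), and with the nontargeting mean *Impdh1* (0.24) and *Shmt1* (0.018). *Impdh1* also had 0.038 with the replicate block and 0.37 with the T0 filter. With 1 library left out, *Aldoc* ranged from -0.083 to 0.18, *B3gnt2* from -0.34 to 1.52, *Cox4i2* from -1.09 to 0.12, *Impdh1* from -0.26 to 0.16, *Pik3ca* from -0.62 to 0.019, *Shmt1* from -0.97 to 0.43, *Slc2a3* from -0.55 to 1.15 and *Taldo1* from -0.82 to 0.072. The replicate numbers were not shown to pair metastasis and T0 libraries (same-number deviations correlated at -0.0805 and -0.0234), and a fit with the replicate number as a block gave 300 lower genes and 0 higher. The same correlations were 0.247 and 0.261 against primary tumour IgG, 0.0769 and 0.0533 against spleen IgG and -0.0859 and -0.0327 against anti-PD-1, each with 2 pairs, and the block called 0 genes in either direction in these 3 comparisons. Only 2 libraries and an unknown read depth limit these values, and the cause of the other shifts was not tested.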
